A study of Homo sapiens with 10 samples.

Results

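SOX4, its relative SOX9 and 7 genes reported earlier as SOX4 targets (EGFR, TNC, TEAD2, EZH2, DICER1, FGFRL1 and DHX9) were followed in prostate cancer cells with less SOX4. Members were the rows of the deposited table whose symbol equals one of these 9 names. All 9 names had exactly 1 row among the 13527 features of the table.

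The cells were DU145, an established human prostate cancer line, grown in DMEM with fetal bovine serum and no other treatment. One group carried a hairpin against SOX4 (shSOX4, genotype given as SOX4 knockdown, 3 libraries) and the other a control hairpin (shCon, genotype given as Scramble, 3 libraries). The labels state neither the sequence of the hairpins nor how many were used, so the result describes 1 cell line and an unknown number of hairpins. The labels do not say whether libraries of one group were grown as separate cultures. The p-values therefore measure how far these libraries spread, which may be technical. In bulk RNA, fewer cells that express a gene and less RNA per cell cannot be told apart. ATAC-seq samples with SOX4 overexpression or an empty vector belong to the same series and were not analysed here.

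SOX proteins bind DNA through an HMG box, a domain that fits into the minor groove at short AT-rich motifs such as AACAAAG and bends the helix. SOX4 belongs, with SOX11 and SOX12, to the SoxC group, which acts in neural and mesenchymal progenitors, and it is often raised in carcinomas, including those of the prostate. SOX9 belongs to the SoxE group, directs cartilage and prostate bud formation, and reads a similar motif. The reported targets cover several routes by which SOX4 has been linked to tumour growth: growth factor receptors, a matrix protein, a transcription factor of the Hippo pathway, a chromatin silencer and 2 RNA-processing enzymes.

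Libraries held 31189910 to 43361609 counts. The first principal component of log2 CPM (counts scaled to library size) held 66.3% of the variance and separated shSOX4 from shCon. On the second, with 15.7%, shSOX4 1 (35.7) and shCon 3 (29.3) stood apart from the other 4 libraries (-21.1 to -7.58), so selected values are also given without these 2 libraries. That omission brought the number of features changed to 5532, against 4431 with all libraries. All 6 epithelial markers had a row, of which 2 rose and 2, CDH1 and EPCAM, fell. The keratin genes KRT8 and KRT18 averaged 4603 and 2274 CPM in shSOX4 cells and 1828 and 1113 CPM in shCon cells. The prostate luminal genes KLK3, KLK2 and TMPRSS2 had no row. Of markers of other cell types, 2 of 6 fibroblast genes had a row and summed to 5.77 to 11.4 CPM in shSOX4 against 1.27 to 1.87 CPM in shCon. The only endothelial gene of 4 with a row, CDH5, had 4.70 to 6.62 CPM in shSOX4 against 0.525 to 0.942 CPM in shCon. The only leukocyte gene of 5 with a row, CD68, had 44.1 to 52.1 CPM against 95.2 to 113 CPM, and the defining genes PTPRC and PECAM1 had none. The part of these markers in the results below was not tested.

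The DNA just before the start sites of the reported targets shows where the SOX motif does and does not occur. RefSeq (GRCh38.p14) gave promoter windows for 8 of the 9 genes, all but SOX9, with 15 start sites in all. Each window was cut to the 250 bases before the start and searched on both strands for AACAAAG and for the shorter cores ACAAAG (contained in AACAAAG) and ACAATG. The windows of 4 targets that changed are printed 5′ to 3′ on the gene's strand, with a core or its reverse complement in capitals where present. For DICER1, which has several start sites, the window is that of the first listed.
TNC, chr9:115118158-115118407, minus strand: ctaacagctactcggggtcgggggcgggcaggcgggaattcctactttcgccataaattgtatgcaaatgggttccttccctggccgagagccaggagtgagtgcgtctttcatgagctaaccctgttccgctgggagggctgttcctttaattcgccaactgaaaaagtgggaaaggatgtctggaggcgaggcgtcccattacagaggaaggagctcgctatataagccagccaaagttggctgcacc
FGFRL1, chr4:1012214-1012463, plus strand: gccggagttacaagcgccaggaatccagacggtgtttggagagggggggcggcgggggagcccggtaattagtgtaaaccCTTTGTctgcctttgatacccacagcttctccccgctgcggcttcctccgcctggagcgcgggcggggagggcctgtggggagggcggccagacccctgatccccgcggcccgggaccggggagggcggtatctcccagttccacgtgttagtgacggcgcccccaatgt
DHX9, chr1:182839097-182839346, plus strand: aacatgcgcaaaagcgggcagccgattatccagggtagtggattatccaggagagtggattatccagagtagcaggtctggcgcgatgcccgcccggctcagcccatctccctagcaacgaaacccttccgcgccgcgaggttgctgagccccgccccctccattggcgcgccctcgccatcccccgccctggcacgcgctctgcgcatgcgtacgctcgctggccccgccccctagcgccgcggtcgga
DICER1, chr14:95157530-95157779, minus strand: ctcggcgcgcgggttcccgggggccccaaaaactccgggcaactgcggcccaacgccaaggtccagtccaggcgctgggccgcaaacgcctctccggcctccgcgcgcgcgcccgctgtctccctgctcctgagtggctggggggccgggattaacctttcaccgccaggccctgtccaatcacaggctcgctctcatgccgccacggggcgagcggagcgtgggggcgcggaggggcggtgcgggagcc

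The windows of TNC and DHX9 and the first of DICER1 held none of these motifs, and FGFRL1 held 1 reversed ACAAAG, 170 to 165 bases before its start (at -170 to -165). AACAAAG itself occurred in 2 of the 15 windows. These belong to TEAD2, where it lies at -28 to -22, and to another start site of DICER1, where it lies reversed at -54 to -48. Both sites are shown with the 11 bases on either side, motif in capitals.
TEAD2, chr19:49362427-49362455, minus strand: cacttttcccaAACAAAGctcccggcaac
DICER1, chr14:95133540-95133568, minus strand: ttctgtgctttCTTTGTTtttaaccctgc
Of the 14636 windows of genes in the table, 3.03% held AACAAAG, 9.68% held ACAAAG and 5.38% held ACAATG. Of the 15 windows, 2 (13.3%) held AACAAAG, 4 (26.7%) held ACAAAG and 1 (6.67%) held ACAATG. Some genes gave several windows, DICER1 the most, so the 15 are not independent. Besides the sites above, ACAAAG lay at -217 to -212 in a window of EZH2 and reversed at -239 to -234 in the DICER1 window with AACAAAG, and ACAATG lay reversed at -98 to -93 in another DICER1 window. Both DICER1 windows with a motif, chr14:95133504-95133753 and chr14:95136802-95137051, lie downstream of the first listed start on the minus strand. The window of SOX4 and both windows of EGFR held none of the 3 motifs. Of the DICER1 windows, that with ACAATG had 38% G or C bases and that with AACAAAG 34%. The windows with a motif in TEAD2, EZH2 and FGFRL1 had 60%, 79.6% and 67.6%. Over the windows of genes in the table the median was 64.8% (quartiles 56.8% and 72%). The part of base composition in the motif shares was not tested. A match is a run of letters and not a binding site, and a window without one says nothing about binding elsewhere.

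SOX4 (ENSG00000124766), the gene the hairpin was made against, had 4.55, 6.44 and 6.01 CPM in shSOX4 1, 2 and 3, against 12.9, 10.1 and 8.48 CPM in shCon 1, 2 and 3. Every shSOX4 library lay below every shCon library. The lowest of each group were shSOX4 1 and shCon 3, the 2 libraries that stand apart. SOX4 fell by 0.89 on the log2 scale (SE 0.236, n = 3 each, adjusted p = 0.0111, edgeR), to 53.9% of its shCon level. The fall was -0.89 (adjusted p = 0.00376, edgeR) without both shSOX4 1 and shCon 3. Without shCon 1, which had the most SOX4, it was -0.71 and did not pass (adjusted p = 0.0598, edgeR). With limma on log2(FPKM + 1) it was -0.48 (adjusted p = 0.0497), a scale that understates changes of low genes.

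SOX9 (ENSG00000125398) had 3.84, 4.74 and 3.24 CPM in shSOX4 and 3.37, 3.79 and 3.26 CPM in shCon. The groups overlapped, and shSOX4 held both the highest and the lowest library. Its log2 fold change was 0.18 (95% interval -0.38 to 0.74, adjusted p = 0.626, edgeR) and the libraries held 109 to 154 counts of it. Changes of either sign within that interval are not excluded. Of the 20 genes on the SOX family list 5 had a row, and 1 of the 5, SOX4, passed, falling. Of all features 32.8% passed. SOX12, the SoxC relative, had 35.7, 31.1 and 28.1 CPM in shSOX4 and 27.2, 28.3 and 41.7 CPM in shCon. Its log2 fold change was -0.04 (adjusted p = 0.91, edgeR), a sign that turned to 0.19 without shCon 3, to 0.054 without shSOX4 3 and to 0.095 without both libraries that stand apart. SOX13 had a value of 0.12 (adjusted p = 0.681, edgeR; -0.00025 without shSOX4 2). SOX15 had -0.21 (adjusted p = 0.704, edgeR), and its sign turned to 0.084 without shCon 3 and to 0.024 without shSOX4 3. SOX11, the remaining SoxC gene, had no row.

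The ratio of 2 genes' counts within a library does not depend on how libraries are scaled. The cells held 1.18, 1.36 and 1.85 SOX4 counts per SOX9 count in shSOX4 1, 2 and 3, against 3.84, 2.67 and 2.60 in shCon. These groups did not overlap, and the log2 ratio differed by -1.05 between them, from -1.23 to -0.87 when 1 library was left out. The exact two-sided permutation test gave p = 0.1, the smallest that 3 libraries against 3 allow, and 0.2 after adjustment over the 4 SOX genes compared with SOX4. Per SOX12 count there were 0.127, 0.207 and 0.214 SOX4 counts in shSOX4, against 0.475, 0.357 and 0.203 in shCon. Here the groups overlapped: shCon 3 had more SOX12 and less SOX4 than the other shCon libraries (exact permutation p = 0.3, adjusted 0.4). Per SOX13 count there were 0.237, 0.311 and 0.444 in shSOX4 against 0.798, 0.681 and 0.470 in shCon, without overlap (exact permutation p = 0.1, adjusted 0.2). Per SOX15 count there were 1.31, 4 and 4.21 in shSOX4 against 5.47, 5.88 and 2.45 in shCon. These groups overlapped as well (exact permutation p = 0.5, adjusted 0.5).

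**Figure D1:**
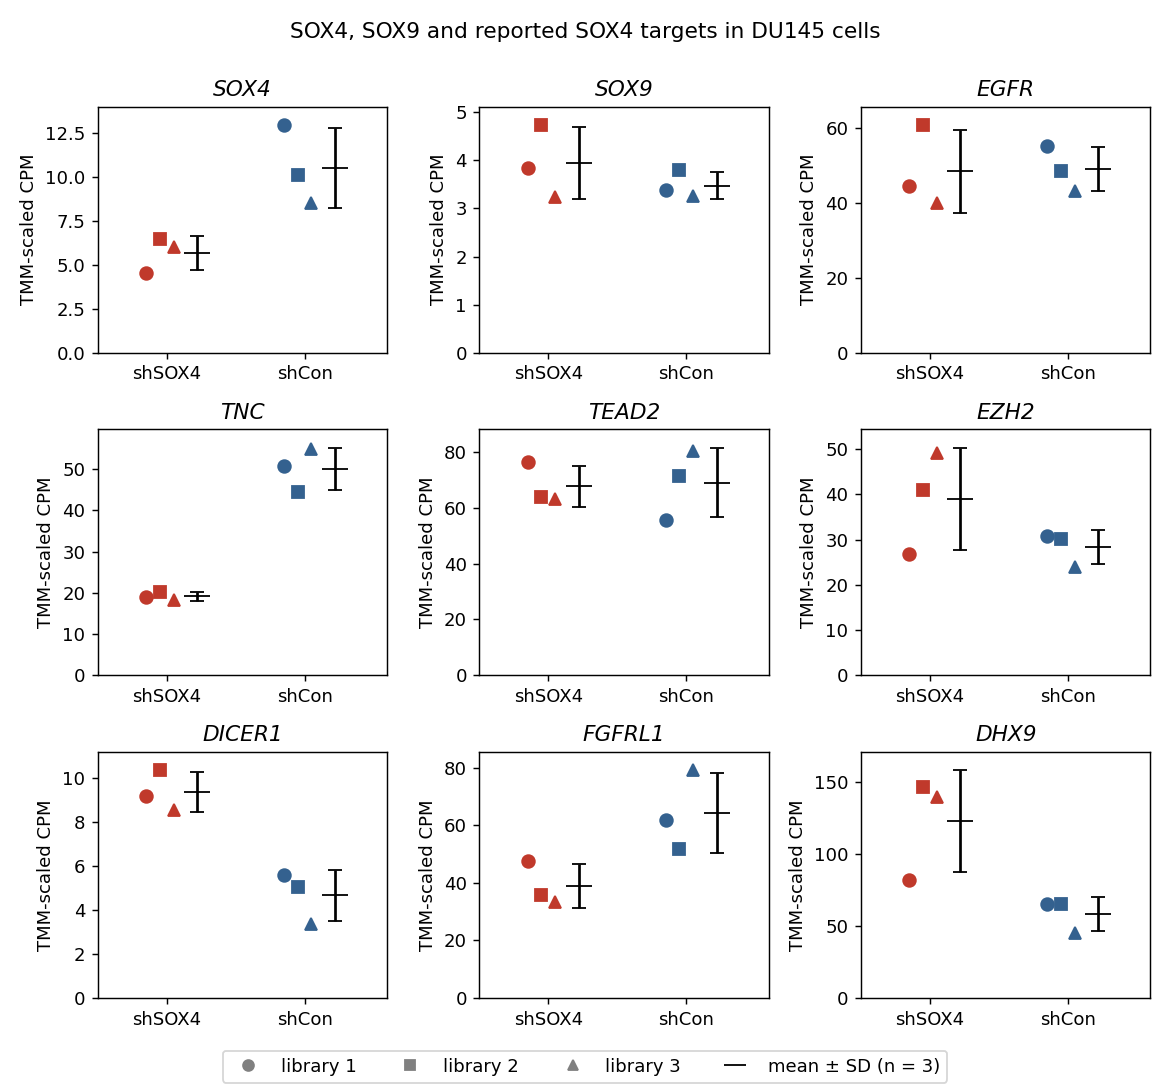
TMM-scaled CPM of the 9 genes in each library, shSOX4 in red and shCon in blue, with a panel and a scale of its own for each gene; bars give the mean ± SD of 3 libraries. For SOX4, TNC and FGFRL1 every shSOX4 point lies below every shCon point, for DICER1 and DHX9 above, and for the other 4 genes the groups overlap.

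Of the 9 genes 5 changed: SOX4, TNC and FGFRL1 fell, DICER1 and DHX9 rose, and SOX9, EGFR, TEAD2 and EZH2 did not pass. Over all features 32.8% changed, 17% upward and 15.8% downward. The same 5 genes also had groups that did not overlap, which held for 47% of all features (23.1% with shSOX4 above and 23.9% with it below). The median log2 fold change was -0.02 over the 9 genes and -0.01 over all features. The number changed ranged from 4 to 6 when 1 library was left out and was 6, with EZH2 added, without both libraries that stand apart. In the authors' deposited table the adjusted p is under 0.05 for the same 5 genes, as it is for 37% of all features, with log2 fold changes of -0.83 for SOX4, -1.33 for TNC, -0.68 for FGFRL1, 0.94 for DICER1 and 1.01 for DHX9. The same table gives 0.17 for SOX9, -0.01 for EGFR, -0.02 for TEAD2 and 0.44 for EZH2.

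**Figure D2:**
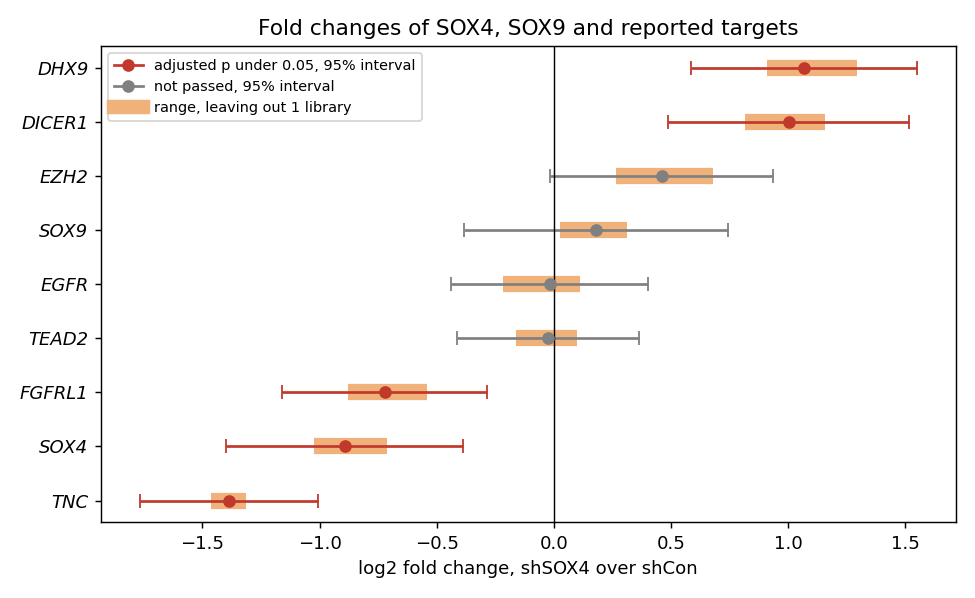
Log2 fold change of each gene (shSOX4 over shCon; points) with its 95% interval (lines) and the range when each library in turn was left out (orange). TNC (-1.39), SOX4 (-0.89) and FGFRL1 (-0.72) lie below 0, DICER1 (1.00) and DHX9 (1.07) above, and the intervals of the 4 grey genes include 0.

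TNC (ENSG00000041982) encodes tenascin C, a large matrix glycoprotein that loosens cell adhesion and is laid down around tumours. It fell furthest of the 9 genes and varied least for its level within the shSOX4 group, with 18.9, 20.3 and 18.3 CPM in shSOX4, against 50.8, 44.6 and 54.8 CPM in shCon. The log2 fold change was -1.39 (SE 0.178, n = 3 each, adjusted p = 6.75e-05, edgeR), and 38.2% of the shCon level remained. When 1 library was left out it stayed between -1.46 and -1.32, and without both libraries that stand apart it was -1.30. On the list of tenascins and tenascin C receptors 7 of 12 genes had a row, of which 2 rose and 2 fell (median 0.04). The shares over all features were 17% and 15.8%. On the list 3 rose and 3 fell without both libraries that stand apart. Of the integrin chains on this list with a row, ITGAV rose and ITGB3 fell, while ITGB1, the one with the highest CPM, did not pass. ITGAV, the alpha V chain, had 17.4, 18.5 and 13.7 CPM in shSOX4 and 8.45, 7.69 and 6.68 CPM in shCon and rose by 1.12 (adjusted p = 0.00134, edgeR). ITGB3, the beta 3 chain that pairs with it, had 4.4, 6.0 and 3.66 CPM in shSOX4 and 11.6, 8.14 and 8.51 CPM in shCon and fell by 1.01 (adjusted p = 0.008, edgeR; 0.0516 with limma on log2(FPKM + 1)). TNXB, tenascin X, rose by 1.44 (adjusted p = 0.000311, edgeR), but it has a near-identical partial copy, TNXA, so how its reads were divided is uncertain.

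EGFR (ENSG00000146648), the epidermal growth factor receptor gene, had 44.5, 60.8 and 39.9 CPM in shSOX4 and 55.2, 48.6 and 43.3 CPM in shCon. Both the highest and the lowest library were shSOX4 libraries. The log2 fold change was -0.02 with a 95% interval from -0.44 to 0.40 (adjusted p = 0.951, edgeR), and its sign turned when shSOX4 1, shSOX4 3 or shCon 1 was left out (0.047, 0.11 and 0.075). Of 13 ErbB receptors and ligands 10 had a row, of which 1 rose and 4 fell (median -0.43). Over all features 17% rose and 15.8% fell. ERBB3, the ErbB receptor with an impaired kinase, had 18.1, 17.0 and 14.2 CPM in shSOX4 against 33.1, 26.3 and 27.5 CPM in shCon and fell by 0.82 (adjusted p = 0.00554, edgeR; 0.0705 with limma on log2(FPKM + 1)). ERBB2 had a value of -0.36 (adjusted p = 0.152, edgeR). Of the ligand genes 3 fell and 1 rose. AREG, amphiregulin, an EGFR ligand, had 11.7, 13.9 and 16.9 CPM in shSOX4 against 37.8, 33.9 and 27.8 CPM in shCon and fell by 1.23 (adjusted p = 0.000619, edgeR). NRG2, a neuregulin, fell by 1.10 (adjusted p = 0.00202, edgeR). EREG, epiregulin, an EGFR ligand, had 7.36, 11.1 and 8.84 CPM in shSOX4 and 15.7, 16.3 and 10.8 CPM in shCon, groups that overlapped, and fell by 0.65 (adjusted p = 0.0449, edgeR). The EREG call was lost without shSOX4 1 (adjusted p = 0.112), shSOX4 3 (0.125), shCon 1 (0.122) or shCon 2 (0.157), and with total-count scaling (0.0807) or limma on log2(FPKM + 1) (0.111). HBEGF, another EGFR ligand, rose by 0.67 (adjusted p = 0.0162, edgeR), a call lost without shSOX4 3 (adjusted p = 0.0794), shCon 1 (0.0568) or shCon 2 (0.0518).

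FGFRL1 (ENSG00000127418) encodes a fibroblast growth factor receptor that lacks the intracellular kinase domain. It had 47.5, 35.9 and 33.3 CPM in shSOX4 and 61.8, 51.6 and 79.0 CPM in shCon. The groups did not overlap, and the highest library of each was shSOX4 1 or shCon 3, those that stand apart. FGFRL1 fell by 0.72 (SE 0.205, n = 3 each, adjusted p = 0.0159, edgeR). The value was -0.67 without shSOX4 2 and -0.61 without shSOX4 3, and neither passed (adjusted p = 0.0781 and 0.0714, edgeR), while without both libraries that stand apart it was -0.71 (adjusted p = 0.00133, edgeR).

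All 4 FGF receptors with a kinase had a row, and all 4 changed, 2 in each direction. FGFR2 had 8.36, 11.7 and 12.0 CPM in shSOX4, against 1.38, 1.26 and 1.20 CPM in shCon. It rose by 3.06 on the log2 scale (SE 0.258, n = 3 each, adjusted p = 1.33e-06, edgeR). FGFR3 had 11.7, 11.6 and 9.55 CPM in shSOX4 and 4.78, 4.62 and 4.81 CPM in shCon and rose by 1.21 (adjusted p = 0.000819, edgeR). FGFR1 had 44.5, 37.6 and 33.9 CPM in shSOX4 and 83.8, 76.1 and 101 CPM in shCon and fell by 1.17 (adjusted p = 0.00037, edgeR). FGFR4 had 35.1, 20.5 and 17.1 CPM in shSOX4 and 52.5, 45.6 and 64.4 CPM in shCon and fell by 1.16 (adjusted p = 0.00345, edgeR). With FGFRL1, 3 of the 6 genes on this list fell and 2 rose (median -0.68), and KLB, a coreceptor, did not pass. Over all features 15.8% fell and 17% rose.

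TEAD2 (ENSG00000074219) is one of 4 TEAD factors, the DNA-binding partners of the Hippo pathway coactivators YAP1 and WWTR1 (TAZ). It had 76.3, 63.8 and 63.3 CPM in shSOX4 and 55.6, 71.4 and 80.3 CPM in shCon, and the shSOX4 values lay within the range of the shCon values. Its log2 fold change was -0.03 with a 95% interval from -0.41 to 0.36 (adjusted p = 0.924, edgeR), and the sign turned without shSOX4 2 (0.015), shSOX4 3 (0.031), shCon 3 (0.098) or both libraries that stand apart (0.0058). TEAD1, of the same family, had 28.8, 51.6 and 33.3 CPM in shSOX4 against 23.4, 18 and 13.2 CPM in shCon and rose by 1.06 (adjusted p = 0.00632, edgeR). Without shSOX4 2, its highest library, TEAD1 was at 0.77 and did not pass (adjusted p = 0.0519, edgeR). TEAD3 (-0.30, adjusted p = 0.237, edgeR) and TEAD4 (0.18, adjusted p = 0.474, edgeR) did not pass, nor did YAP1 and WWTR1. Of the 9 TEAD factors and coactivators listed 7 had a row, 1 rose and 0 fell with edgeR, while 1 fell with DESeq2 and without both libraries that stand apart, and 0 with limma-voom. At an unadjusted p under 0.05 (edgeR) there were 2, TEAD1 up and VGLL4 down, and 5952 of all 13527 features. Over all features 17% rose and 15.8% fell with edgeR at the adjusted threshold. The number of features that fell was 2407 with DESeq2, 2151 with limma-voom and 2642 without both libraries that stand apart.

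All 10 genes on a list of TEAD targets had a row, and 1 rose and 5 fell (median -0.53). The shares over all features were 17% up and 15.8% down. Without shSOX4 2 the number of the listed targets that fell was 1, and 3 fell without shSOX4 3. Leaving out both libraries that stand apart gave 6. AXL, a receptor tyrosine kinase, had 511, 495 and 444 CPM in shSOX4, against 894, 806 and 884 CPM in shCon. It fell by 0.83 (adjusted p = 0.000828, edgeR). AJUBA, a LIM protein, fell by 0.65 (adjusted p = 0.0077, edgeR) and CCN1, a matricellular protein, by 0.56 (adjusted p = 0.0111, edgeR), and both calls were lost without shSOX4 2 (adjusted p = 0.0687 for each). ANKRD1, a muscle-type ankyrin repeat protein, had 133, 165 and 148 CPM in shSOX4 and 109, 79.7 and 51.6 CPM in shCon and rose by 0.89 (adjusted p = 0.00894, edgeR).

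EZH2 (ENSG00000106462) encodes the methyltransferase of Polycomb repressive complex 2 (PRC2), which marks histone H3 for gene silencing. It had 26.7, 40.9 and 49.2 CPM in shSOX4 and 30.8, 30.2 and 24.0 CPM in shCon. The groups overlapped through shSOX4 1, which had less EZH2 than 2 of the 3 shCon libraries. The log2 fold change was 0.46 with a 95% interval from -0.02 to 0.94, and it did not pass (adjusted p = 0.125, edgeR; 0.0937 by DESeq2). Without shSOX4 1 it was 0.68 and passed (adjusted p = 0.0139, edgeR), and without both libraries that stand apart it was 0.57 and passed (adjusted p = 0.00649, edgeR), while without shSOX4 3 it was 0.27. Of 13 PRC2 genes 12 had a row and 3 rose (median 0.40), where 17% of all features rose. The number of PRC2 genes that rose was 1 without shSOX4 2 and 1 without shSOX4 3. MTF2, an accessory subunit that guides PRC2 to CpG islands, had 5.05, 9.16 and 7.41 CPM in shSOX4 and 3.75, 2.90 and 3.12 CPM in shCon and rose by 1.14 (adjusted p = 0.0058, edgeR). The histone-binding subunit gene RBBP7 rose by 0.77 (adjusted p = 0.0128, edgeR), a call lost without shSOX4 2 (adjusted p = 0.0685) or shSOX4 3 (0.0575). EZH1, the other catalytic subunit, was at -0.53 (adjusted p = 0.0642, edgeR). DESeq2 called it (adjusted p = 0.0406), and with edgeR it passed without shCon 3 (-0.66, adjusted p = 0.0222, edgeR) and without both libraries that stand apart (-0.56, adjusted p = 0.0164, edgeR).

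DICER1 (ENSG00000100697) encodes the ribonuclease that cuts microRNA precursors into mature microRNAs. It had 9.15, 10.3 and 8.54 CPM in shSOX4, against 5.59, 5.02 and 3.35 CPM in shCon. Every shSOX4 library lay above every shCon library, and shCon 3 was the lowest of all. DICER1 rose by 1.00 on the log2 scale (SE 0.241, n = 3 each, adjusted p = 0.00662, edgeR), and this was 0.83 (adjusted p = 0.00789, edgeR) without both libraries that stand apart. The counts behind these values were 312, 334 and 287 in shSOX4 and 255, 187 and 115 in shCon. All 13 genes of microRNA processing and Argonautes had a row, and DICER1 was the 1 that passed (median 0.24). Of all features 32.8% passed. The Argonaute genes, whose proteins carry mature microRNAs, had values of -0.04 for AGO1, 0.29 for AGO2, 0.42 for AGO3 and -0.07 for AGO4 (adjusted p of 0.218 to 0.909, edgeR). The signs of AGO1 and AGO4 each turned under 3 of the 6 single-library omissions. DROSHA and DGCR8, which make the precursors that DICER1 cuts, did not pass.

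DHX9 (ENSG00000135829) encodes RNA helicase A, which unwinds double-stranded RNA and acts in transcription and RNA processing. It had 82.3, 147 and 140 CPM in shSOX4, against 65.3, 65.7 and 45.1 CPM in shCon. The groups did not overlap, and the lowest of each were again shSOX4 1 and shCon 3. DHX9 rose by 1.07 (SE 0.226, n = 3 each, adjusted p = 0.0031, edgeR), and by 1.13 (adjusted p = 8.01e-06, edgeR) without both of those libraries. All 17 DEAH-box helicases listed had a row, and 5 rose and 1 fell (median 0.29), with 3 up without shSOX4 2. Over all features 17% rose and 15.8% fell. DHX29, a helicase of translation initiation, had 9.03, 12.3 and 11 CPM in shSOX4 and 3.46, 3.65 and 2.30 CPM in shCon and rose by 1.78 (adjusted p = 0.000154, edgeR). DHX36, which resolves G-quadruplexes, rose by 1.14 (adjusted p = 0.00485, edgeR). DHX38, a splicing helicase, had 85.4, 83.5 and 81.9 CPM in shSOX4 against 134, 125 and 153 CPM in shCon and fell by 0.71 (adjusted p = 0.00377, edgeR).

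Beyond the 7 target genes above, 9 other genes named in earlier work as candidate SOX4 targets were listed. They include receptors of the Wnt, Hedgehog and Notch pathways or their ligands, transcription factors, and a neuronal tubulin. Of these 8 had a row, all but DLL1, and 0 passed with edgeR, where 32.8% of all features did. At an unadjusted p under 0.05 (edgeR) there were 2 of the candidates, and 5952 of all 13527 features. DESeq2 called 1 candidate and 5003 features, and limma-voom 0 candidates and 4438 features. The log2 fold changes ran from -0.48, for the pioneer factor gene FOXA1, to 0.55, for the Wnt receptor gene FZD5, with a median of 0.06. Without both libraries that stand apart 2 candidates rose and 1 fell, where 2890 of the 13527 features rose and 2642 fell.

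**Figure D3:**
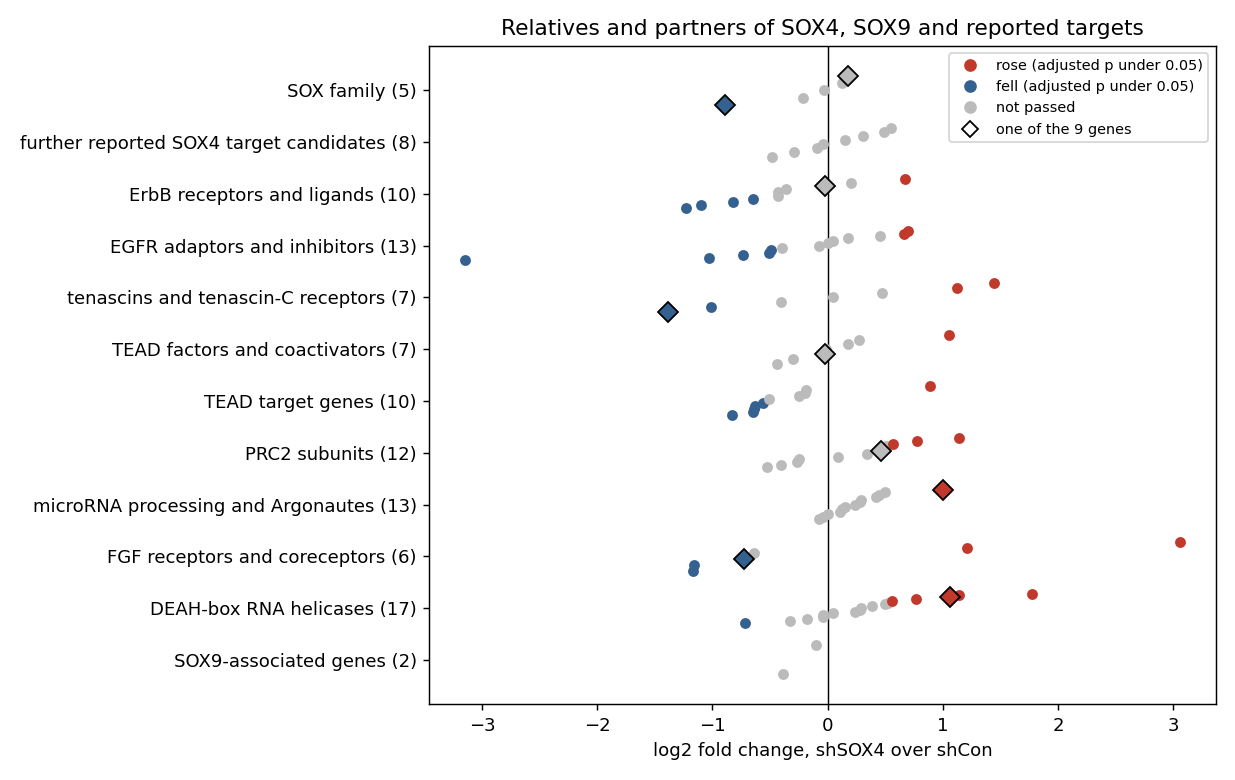
Log2 fold change (shSOX4 over shCon) of every gene with a row on each list of relatives and partners, with the number of genes in brackets; diamonds mark the 9 genes. The FGF receptors spread from -1.17 to 3.06, the genes of microRNA processing from -0.07 to 1.00, and the other candidate targets from -0.48 to 0.55.

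Levels can be set between genes only per transcript length, and for this the authors' FPKM values were used. In shSOX4 cells TEAD2 led with 28.8 ± 3.12 FPKM (SD, n = 3), followed by DHX9 (27.2 ± 8.38), EZH2 (14.3 ± 4.10), FGFRL1 (11.3 ± 2.97), EGFR (4.70 ± 1.21), TNC (2.58 ± 0.205), SOX9 (0.936 ± 0.209), SOX4 (0.906 ± 0.181) and DICER1 (0.864 ± 0.106). In shCon cells the order by FPKM was TEAD2 (29.5 ± 4.08), FGFRL1 (19.1 ± 3.08), DHX9 (13 ± 3.27), EZH2 (10.4 ± 1.98), TNC (6.31 ± 0.544), EGFR (4.75 ± 0.853), SOX4 (1.68 ± 0.447), SOX9 (0.822 ± 0.105) and DICER1 (0.487 ± 0.148). SOX9, SOX4 and DICER1 overlapped in shSOX4 libraries, whereas in shCon libraries SOX4 lay above SOX9 and SOX9 above DICER1 without overlap. TEAD2 and DHX9 overlapped in shSOX4, as did EZH2 and FGFRL1, and in shCon DHX9 and EZH2 did. The other neighbours in each order did not overlap.

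**Figure D4:**
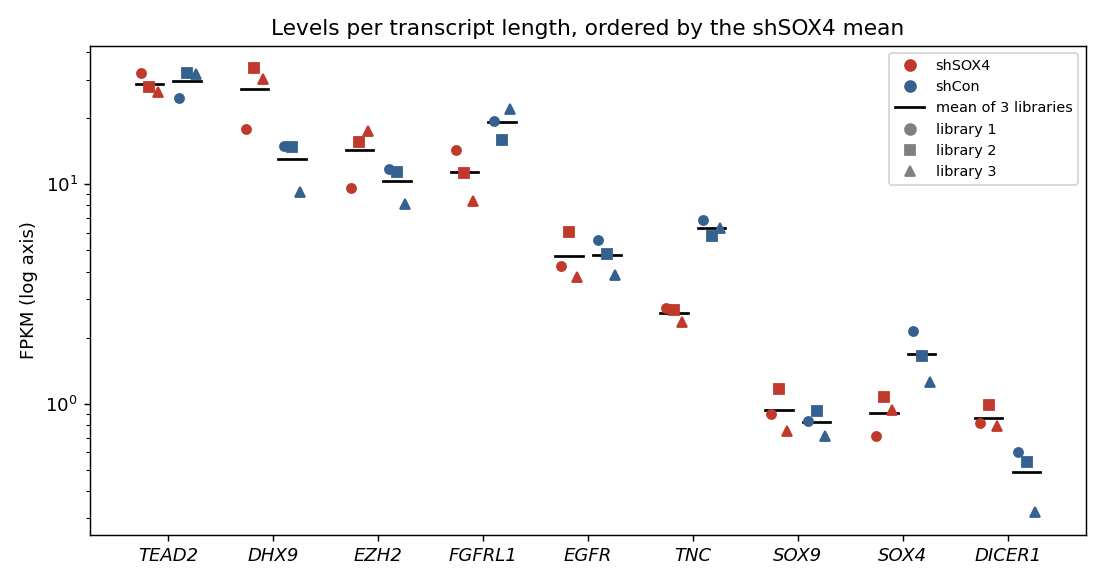
FPKM of the 9 genes in each library on a log axis, shSOX4 in red left of shCon in blue, with the mean of 3 libraries as a line. SOX4 and TNC have means of 0.906 and 2.58 FPKM in shSOX4 against 1.68 and 6.31 in shCon, while those of TEAD2 are 28.8 and 29.5.

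The deposited counts and FPKM values did not keep a constant ratio for every gene. Relative to the library median, that ratio varied over the 6 libraries by 18.9% of its mean for TNC, 17.4% for FGFRL1 and 15.1% for DICER1, and by 0.566 to 4.88% for the other 6 genes. In RefSeq's annotation EGFR, DICER1 and DHX9 overlap an antisense gene, and DICER1 also MIR3173. TNC overlaps LOC124902256 and LOC124902255, EZH2 overlaps RNU7-20P, TEAD2 meets its neighbours CD37 and DKKL1, and DHX9 has a pseudogene, DHX9P1. The sources used here do not state whether counting used strand, so how reads of such overlapping genes were assigned is not known. Overlap was taken from whole gene spans, and overlap of exons was not checked.

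The genes whose profile over the 6 libraries was closest to that of SOX4 were found among 9639 protein-coding candidates averaging 5 CPM or more, by the root mean square difference of log2 CPM centred on each gene's mean. MFHAS1 was nearest, at 0.054, with 10.9, 16.6 and 15.5 CPM in shSOX4 and 32.0, 23.6 and 21.6 CPM in shCon. DONSON (0.087), SEL1L3 (0.089), EMB (0.096) and GCNT3 (0.096) came next, and the median over all candidates was 0.546. Like SOX4, all 5 were lowest in shSOX4 1 among all libraries, and highest in shCon 1. Choosing genes by likeness to SOX4 favours this, so it is not a separate result. The 5 nearest to SOX9 were ELF2 (0.070), MITF (0.074), NIN (0.076), RALGPS2 (0.077) and EFNA5 (0.083), against a median of 0.348. These lists describe likeness over 6 libraries of 1 experiment and carry no test.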

How the data were processed

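RNA-seq of 3 shSOX4 and 3 shCon libraries of DU145 cells was read from 1 deposited table, whose SH and NC columns were taken as shSOX4 and shCon with the labels' replicate numbers. Its deposited count columns hold unscaled whole-number counts of reads, per the file headers. FPKM columns, also deposited, correct for length and depth, per the file headers. An adjusted p-value and a log2 fold change by the authors stand in the same deposited table. The sources used here give neither the tool behind them nor the counting program or annotation. The submitters' processing notes name HISAT2 and STAR among tools for both assays, and the build hg19. All 13527 features had at least 1 CPM in at least 3 libraries.

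Counts were tested in R 4.3.3 with edgeR 4.0.16 (filterByExpr, which removed 0 features, then TMM scaling and the two-sided quasi-likelihood F test, group as the only term) over the whole table. A gene was called changed at an adjusted p (Benjamini-Hochberg) under 0.05. CPM values are TMM-scaled, and log2 CPM used a prior count of 2. Intervals of 95% come from the fit's SE and degrees of freedom. Fits were tested on simulated data. Alternatives were other scalings and filters, DESeq2 1.42.0, limma-voom and limma on log2(FPKM + 1) with limma 3.58.1 (mean FPKM of at least 1), the replicate number as a block, and leaving out each library. Leaving out both libraries that stand apart, and the other scalings of the profile comparison, were added afterwards. Members, gene lists and tests were chosen with earlier results of these data known. The naming rule took every member, up to 5 called genes of each list by adjusted p, close paralogs whatever their p, and the 5 nearest profiles to SOX4 and SOX9. Identifiers matched a current symbol for 12386 of 12411 features not named newGene. Promoter windows came from RefSeq's table for GRCh38.p14, a newer build than that of the deposited files, and were used for sequence only. Some single-gene values from the lists are not reported here. ATAC-seq samples were not analysed here.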

Additional observations from a re-analysis of the deposited data

How the results depend on the processing

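The number of features changed was 4431, from 2509 to 4966 when 1 library was left out (1411 to 2653 upward and 1098 to 2313 downward), the lowest without shSOX4 2. SOX4 stayed negative under every alternative, between -1.02 and -0.71 when 1 library was left out, and did not pass without shCon 1. The number of the 9 genes that rose was 1 with limma on log2(FPKM + 1), where DICER1, with a mean FPKM under 1, was not tested. TNC, DICER1 and DHX9 passed in every alternative that tested them. FGFRL1 did not pass without shSOX4 2 or without shSOX4 3. EZH2 passed without shSOX4 1 and without both libraries that stand apart. Signs that turned belonged to genes that did not pass: leaving out 1 library gave -0.22 to 0.11 for EGFR, -0.16 to 0.098 for TEAD2, -0.15 to 0.19 for SOX12, -0.00025 to 0.29 for SOX13, -0.71 to 0.084 for SOX15, -0.19 to 0.12 for AGO1 and -0.36 to 0.17 for AGO4, and leaving out both libraries that stand apart gave 0.0058 for TEAD2 and 0.095 for SOX12. The cause was not tested.

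Same-numbered libraries' deviations from their group means correlated at -0.29, 0.16 and -0.29 across genes. The highest value between any shSOX4 and any shCon library was 0.49, for shSOX4 1 and shCon 3. Deviations within a group depend on each other, so these values cannot tell whether libraries were prepared as pairs. With the replicate number as a block 3374 features and the same number of the 9 genes, 5, changed, with SOX4 at -0.88 (adjusted p = 0.0175, edgeR). The HBEGF call was lost under the block (adjusted p = 0.0562). Under the block, the EREG call was also lost (adjusted p = 0.0762). SOX9, DICER1 and SOX4, which had the fewest counts of the 9 genes, had the largest SEs (0.263, 0.241 and 0.236). DHX9 and EZH2, with more counts, had SEs of 0.226 and 0.222, and TNC had the smallest (0.178). The part of count level in the SEs was not tested.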

Other observations

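Genes that carry or damp the EGFR signal changed in both directions. Over all features 17% rose and 15.8% fell. All 13 of the listed adaptors and inhibitors had a row, of which 2 rose and 5 fell (median -0.08), with 2 to 5 down and 0 to 2 up when 1 library was left out. The 2 that rose were SOS1, which activates RAS (0.67, adjusted p = 0.0355, edgeR), and SPRY4, a Sprouty inhibitor (0.70, adjusted p = 0.0484, edgeR). The number that rose was 0 without any 1 of shSOX4 1, shSOX4 2, shCon 1 and shCon 2, without both libraries that stand apart, with limma on log2(FPKM + 1) and with the replicate number as a block. The number that fell was 2 without shCon 2, and 3 without any 1 of shSOX4 1, shSOX4 2 and shCon 1 and with the replicate number as a block. SHC1, the adaptor that links EGFR to RAS, had 886, 747 and 742 CPM in shSOX4 and 1484, 1521 and 1829 CPM in shCon and fell by 1.03 (adjusted p = 0.000238, edgeR). CBLC, a ubiquitin ligase of the CBL family, had 1.53, 1.15 and 0.595 CPM in shSOX4 and 9.94, 7.15 and 11.9 CPM in shCon, and its relatives CBL and CBLB did not pass.

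Of 10 genes listed for their link to SOX9, most of them cartilage genes, 2 had a row, and 0 passed with edgeR, DESeq2 or limma-voom. At an unadjusted p under 0.05 there were also 0. With edgeR 32.8% of all features passed, and 5952 of 13527 had an unadjusted p under 0.05. A count over 2 genes says little about genes linked to SOX9.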
